A study of Rattus norvegicus with 84 samples.

Results

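RAD001 (everolimus) is a rapalog, a drug that inhibits the kinase complex mTORC1. Here the change that RAD001 made in the liver of old rats was compared with the change it made in their gastrocnemius, the large calf muscle. The tested quantity was the interaction, that is the log2 change in liver minus the log2 change in gastrocnemius. By their calls, loci were sorted into shared, tissue-limited and opposite responses, and 7183 of the 7534 loci tested fell into none of these. The comparison used 36 of the 84 libraries of the series, selected by their titles. They were 8 livers and 8 gastrocnemius muscles of male Sprague Dawley rats of 24 months on RAD001, and 10 livers and 10 gastrocnemius muscles of male Sprague Dawley rats of 24 months on vehicle. RAD001 rats were dosed by mouth once a week, 7 doses over 6 weeks from an age of 22.5 months, with vehicle on the other days, and vehicle rats received vehicle daily. Sprague Dawley is an outbred laboratory strain. Kidneys of the same 2 groups (8 on RAD001 and 10 on vehicle) served as libraries that the sorting did not use. The labels number the libraries but do not state which come from 1 rat, and p-values therefore reflect how far libraries differ, which may be technical.

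mTORC1 couples nutrients and growth factors to protein synthesis, ribosome production and nucleotide and lipid synthesis, and holds back autophagy. Liver and skeletal muscle both respond to it, the liver as the centre of feeding and fasting metabolism and the muscle as the main store of body protein. Chaperones fold the proteins that ribosomes make, and the proteasome degrades those that are tagged with ubiquitin, so both systems work downstream of protein synthesis.

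Total RNA was sequenced, and the values are read coverage per base of a locus, scaled between the libraries of a tissue. Levels are given as the lowest, the median and the highest library of a group (n = 8 on RAD001 and n = 10 on vehicle in each tissue). Changes are RAD001 minus vehicle in log2(scaled coverage + 0.1), a scale that understates the change of low loci, with the standard error (SE) and the Benjamini-Hochberg adjusted p of limma over all loci tested. A locus was tested where its coverage was at least 0.1 in at least 8 of the 18 libraries of both tissues, which 7534 of 17502 loci met. Relative depth, read from the size of 1 read in the values of short loci, spanned 0.834 to 1.32. In liver it was 1.04 to 1.32 on RAD001 and 0.951 to 1.16 on vehicle (exact permutation test, two-sided, p = 0.0115, adjusted over 36 library values 0.0787).

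Marker genes matched the labelled tissues. The summed coverage of 19 hepatocyte markers was at least 4726 in every liver library and at most 1.33 in every gastrocnemius library, and that of 19 muscle fibre markers was at least 4780 in every gastrocnemius and at most 0.598 in every liver. None of these markers passed the filter in both tissues, so genes that define either tissue are outside the comparison. In bulk tissue, fewer cells of a type and less RNA per cell cannot be told apart.

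The vehicle livers were uneven in 1 abundant RNA. 7SL, the structural RNA of the particle that targets secretory proteins to the membrane, stood at 20416, 22892 and 24404 in RAD001 livers and at 11637, 18087 and 24601 in vehicle livers (exact permutation test, two-sided, p = 0.0420, adjusted 0.137). The vehicle livers fell into 4 that lay within or above the range of the treated livers and 6 (numbers 2, 4, 6, 7, 8 and 9) that lay below all of them. In gastrocnemius the groups overlapped, with 16398, 17548 and 19393 on RAD001 and 15605, 18059 and 19870 on vehicle. The ribosomal RNA precursor Rn45s stood at 379, 417 and 485 in RAD001 livers and 210, 341 and 473 in vehicle livers (exact p = 0.0131, adjusted 0.0787), and at 254, 291 and 314 in RAD001 gastrocnemius and 186, 233 and 304 in vehicle gastrocnemius (exact p = 0.0024, adjusted 0.0288). Interactions of most liver-limited genes described and medians of several lists are therefore also given without the 6 vehicle livers of low 7SL. This comparison of 8 with 4 livers was chosen after seeing the data and is called 7SL-matched here.

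**Figure D1:**
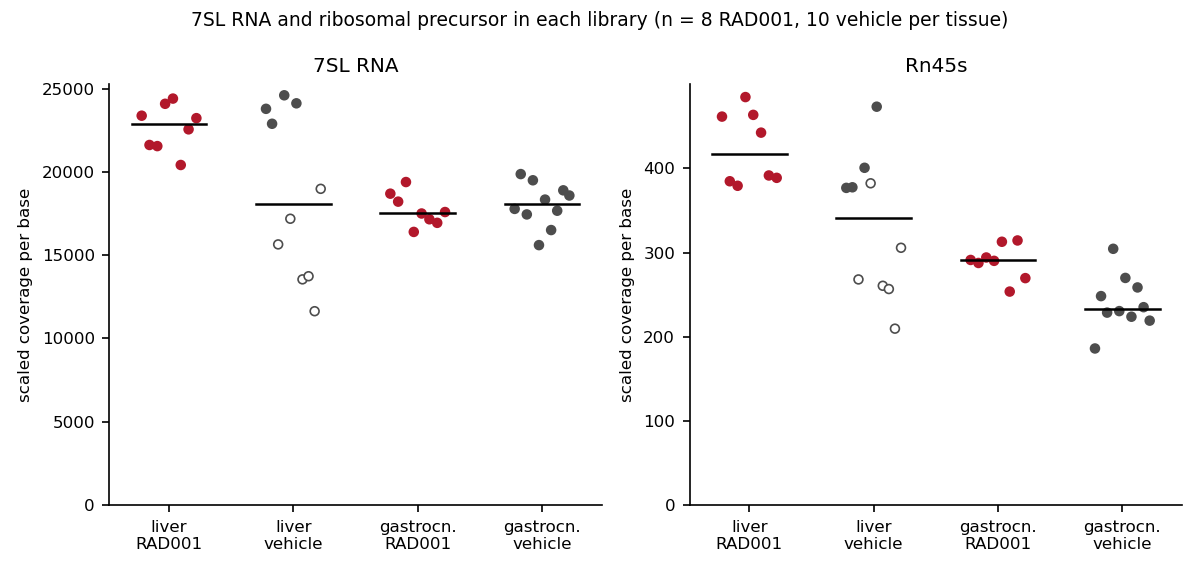
Scaled coverage per base of 7SL RNA (left) and of the ribosomal RNA precursor Rn45s (right) in each library, with 1 point per library and a line at the group median. Open circles are the 6 vehicle livers whose 7SL lay below that of every RAD001 liver; the gastrocnemius groups overlap in 7SL.

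The RAD001 change differed between liver and gastrocnemius at 374 loci (4.96% of those tested), of which 176 had a higher and 198 a lower change in liver. Taken alone, liver had 1345 called loci (17.9%; 662 or 8.79% higher and 683 or 9.07% lower on RAD001) and gastrocnemius 203 (2.69%; 108 higher and 95 lower). Of the 52 loci called in both tissues, 49 moved the same way. These 49 shared loci, 26 higher (0.345%) and 23 lower (0.305%), made up 3.64% of the liver calls and 24.1% of the gastrocnemius calls. Most loci called in 1 tissue did not pass the interaction: of 1293 loci called in liver alone, 269 also passed the interaction, and of 151 called in gastrocnemius alone, 30 did. These 269 liver-limited loci (132 or 1.75% higher and 137 or 1.82% lower) and 30 gastrocnemius-limited loci (16 or 0.212% higher and 14 or 0.186% lower) are the tissue-limited responses. Another 3 loci were called in both tissues with opposite signs, 1 of them (0.0133%) higher in liver and 2 (0.0265%) higher in gastrocnemius, and 70 passed the interaction without a call in either tissue. Across all 7534 loci the changes in both tissues had a Pearson correlation of 0.284, a description over loci that are not independent replicates.

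The 7SL-matched comparison, with 6 fewer libraries, had few calls. It called 7 loci by the interaction (847 at an unadjusted p under 0.05) and 10 in liver, and it left no shared and 4 liver-limited loci. All 269 liver-limited loci kept the sign of their interaction in it, 108 of the 132 higher and 110 of the 137 lower ones at an unadjusted p under 0.05. It reuses most of the libraries that chose these loci, so kept signs and small p-values follow in large part from the choice. Over all 7534 loci tested, 6065 kept the sign of their interaction. The median interaction of the higher ones was 0.29 in it, against 0.42 over all libraries, and that of the lower ones -0.28, against -0.41. This choice also bears on the unadjusted 7SL-matched p-values given below for single genes. Among genes given per library, only Rhob and Got1 were called by the interaction in that comparison. With the 7SL level as a covariate in each tissue the interaction had 13 calls. Without any scaling between libraries, on the values as deposited, it had 106 calls (72 higher and 34 lower), the liver 1459 (462 higher and 997 lower) and the gastrocnemius 10 (1 higher and 9 lower). Of the genes given below per library with a gastrocnemius call, Hspa5, Ubd, Gsta1 and Gstm2 kept it on those values. Under upper quartile scaling the interaction had 223 higher and 149 lower calls, the liver 868 and 460, and the gastrocnemius 151 and 89.

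**Figure D2:**
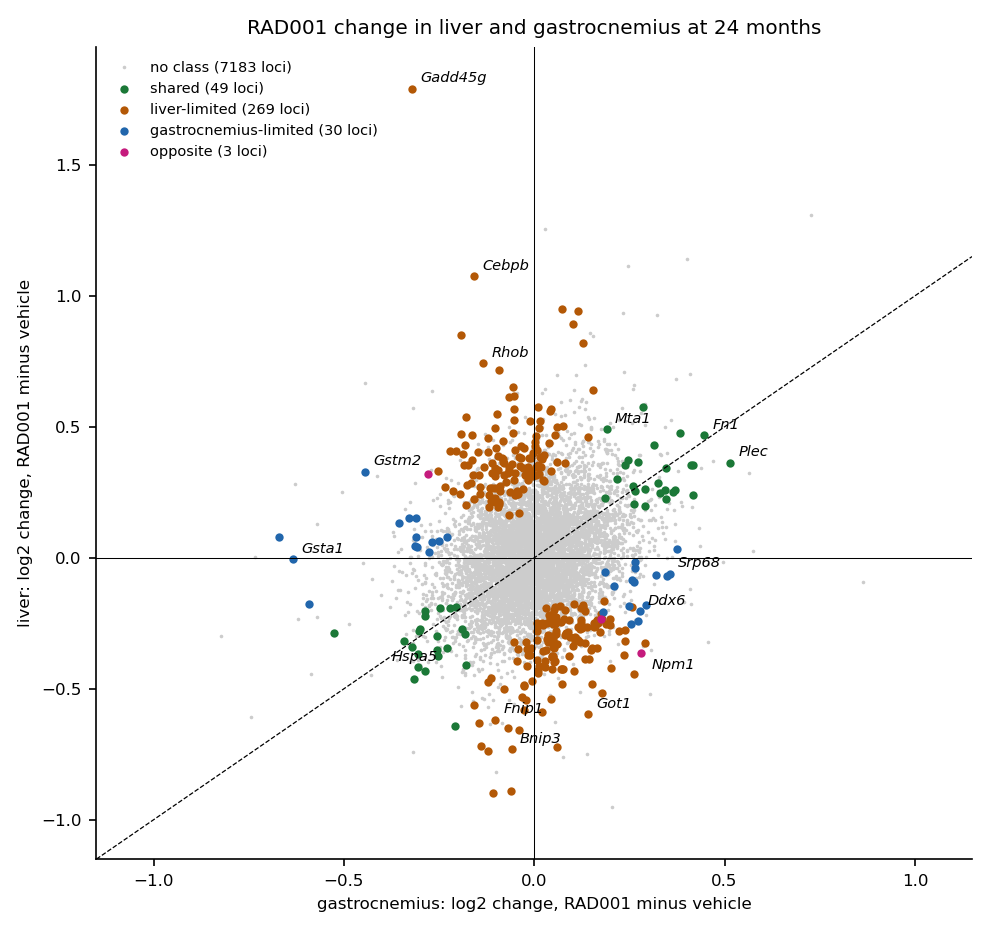
Log2 change on RAD001 in gastrocnemius (horizontal axis) and liver (vertical axis) for each locus tested, with the classes coloured and the line of equal change dashed. The 49 shared loci lie at the lower left and the upper right, most of the 269 liver-limited loci near the vertical axis and most of the 30 gastrocnemius-limited loci near the horizontal axis; 1 locus (Ubd) is outside the axes.

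Hspa5, Pdia6, Hspd1 and Hspe1, which encode folding factors of the endoplasmic reticulum and of mitochondria, fell on RAD001 in both tissues. Hspa5 encodes BiP, the main Hsp70 chaperone of the endoplasmic reticulum and the sensor partner of the unfolded protein response. It lies at chromosome 3, 19157874 to 19162333, plus strand (rn5) and had a coverage of 14.6, 16.9 and 18.3 in RAD001 livers and 16.5, 21 and 27.7 in vehicle livers. In gastrocnemius its coverage was 2.67, 2.79 and 3.04 on RAD001 and 3.22, 3.64 and 4.08 on vehicle. Among treated libraries, 4 of 8 livers and none of 8 muscles were inside the range of the vehicle libraries. Its change was -0.32 (SE 0.0813, adjusted p = 0.0137) in liver and -0.34 (SE 0.0481, adjusted p = 0.000976) in gastrocnemius, and the difference between them was 0.03 (95% interval -0.16 to 0.21, adjusted p = 0.906). Pdia6, a protein disulfide isomerase that works with BiP, fell in both tissues as well, with changes of -0.19 (SE 0.0653, adjusted p = 0.0467) in liver and -0.25 (SE 0.0585, adjusted p = 0.0268) in gastrocnemius.

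Hspd1 and Hspe1 encode the mitochondrial chaperonin Hsp60 and its lid Hsp10, which fold imported proteins. They are divergent neighbours on chromosome 9, at 61361746 to 61372172 on the minus strand and 61372462 to 61375655 on the plus strand (rn5), with 289 bases between them. Hspd1 stood at 4.45, 4.54 and 5.59 in RAD001 livers and 5.39, 6.28 and 7.49 in vehicle livers. In gastrocnemius it stood at 1.76, 2.4 and 2.71 on RAD001 and 2.71, 2.9 and 3.23 on vehicle. The vehicle range held 1 of the 8 RAD001 livers and none of the 8 RAD001 muscles. Hspe1 had 5.01, 6.45 and 7.1 in RAD001 livers and 6.43, 7.51 and 9.44 in vehicle livers, and 3.91, 4.25 and 4.61 in RAD001 gastrocnemius and 4.44, 5.26 and 6.07 in vehicle gastrocnemius. Overlap with the vehicle range was seen for 4 of 8 treated livers and 2 of 8 treated muscles. The changes of Hspd1 were -0.42 (SE 0.0648, adjusted p = 0.0012) in liver and -0.30 (SE 0.0667, adjusted p = 0.0179) in gastrocnemius, those of Hspe1 -0.27 (SE 0.0812, adjusted p = 0.0261) in liver and -0.30 (SE 0.0555, adjusted p = 0.00815) in gastrocnemius. The liver call of Hspe1 was lost when either of 2 single libraries was left out. These 3 names (Pdia6, Hspd1 and Hspe1) were chosen after their values were seen.

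To show what lies upstream of chaperone genes called in 1 or both tissues, the 250 bases before the RefSeq start sites of some of them are printed, with the matches to 2 known response elements in capitals, read on either strand from the RefSeq promoter table (assembly GRCr8). The ER stress response element, written here as CCAAT and CCACG with 9 bases between them, is the site of the factors ATF6 and NF-Y. It was found in 22 of all 33469 promoters of this length (0.0657%) and in 7 of the 16 endoplasmic reticulum chaperone genes tested here that the table holds, of 23 tested. The 3 of these 7 that fell in liver are printed: Hspa5 with 1 match at chr3:38452766-38453015, plus strand, Hsp90b1 with 2 at chr7:23012294-23012543, minus strand and Canx with 1 at chr10:35157858-35158107, minus strand. The other 4, Calr, Creld2, Dnajc3 and Xbp1, were called in neither tissue. No match was found for Dnajb9, Ero1l, Pdia4 and Pdia6, which fell in liver as well. Whether each of them lacks the element or is missing from the promoter table was not recorded.
Hspa5: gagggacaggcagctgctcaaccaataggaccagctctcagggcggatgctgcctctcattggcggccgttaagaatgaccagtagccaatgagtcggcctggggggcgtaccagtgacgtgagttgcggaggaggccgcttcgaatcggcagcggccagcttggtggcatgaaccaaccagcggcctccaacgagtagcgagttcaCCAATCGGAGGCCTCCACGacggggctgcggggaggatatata
Hsp90b1: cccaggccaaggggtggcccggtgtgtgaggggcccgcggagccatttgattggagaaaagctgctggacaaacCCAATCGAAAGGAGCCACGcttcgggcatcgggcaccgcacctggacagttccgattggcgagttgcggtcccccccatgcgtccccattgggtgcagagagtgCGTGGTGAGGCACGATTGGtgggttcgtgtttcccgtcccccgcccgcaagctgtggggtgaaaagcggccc
Canx: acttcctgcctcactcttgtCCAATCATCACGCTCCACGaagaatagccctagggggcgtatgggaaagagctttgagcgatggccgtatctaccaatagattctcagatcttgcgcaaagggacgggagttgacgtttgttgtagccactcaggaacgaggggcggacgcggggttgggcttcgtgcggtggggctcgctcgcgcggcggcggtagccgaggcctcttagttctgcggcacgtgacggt

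The heat shock element, written here as GAA, TTC and GAA with 2 bases between neighbours, is the site of heat shock factors. It was found in 222 of all 33469 promoters (0.663%) and in 4 of the 15 heat shock protein genes of the table, of 19 tested, namely Hspa8, Hspd1, Hspe1 and Hsph1. The stretch before Hspe1, at chr9:64084077-64084326, plus strand, is part of the interval it shares with Hspd1 and held 2 overlapping matches. That before Hspa8, the constitutive cytosolic Hsp70, at chr8:50080264-50080513, plus strand, held 2 separate ones. Hsph1, which has a match, was called in neither tissue, while Chordc1, Dnaja1 and Hsf2 fell in liver without a match found. A match is a description of the letters and no evidence of binding.
Hspe1: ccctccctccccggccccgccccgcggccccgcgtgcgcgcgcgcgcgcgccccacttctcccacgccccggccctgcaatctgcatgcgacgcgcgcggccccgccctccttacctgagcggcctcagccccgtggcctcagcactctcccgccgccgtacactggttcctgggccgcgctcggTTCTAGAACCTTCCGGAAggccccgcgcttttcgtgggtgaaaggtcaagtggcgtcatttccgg
Hspa8: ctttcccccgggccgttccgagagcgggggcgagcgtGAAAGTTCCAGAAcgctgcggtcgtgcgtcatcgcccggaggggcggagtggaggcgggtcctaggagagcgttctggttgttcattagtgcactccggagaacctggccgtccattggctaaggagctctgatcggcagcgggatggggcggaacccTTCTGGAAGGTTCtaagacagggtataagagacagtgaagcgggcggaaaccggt

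Of 23 endoplasmic reticulum chaperones tested, 7 fell and 1 rose in liver (9.07% of all loci fell and 8.79% rose there), 2 fell in gastrocnemius (1.26%) and 4 had a lower change in liver by the interaction (2.63% of all loci did). Their median change was -0.14 in liver and -0.02 in gastrocnemius, against -0.00073 and -0.0014 over all loci, and it was -0.15 in the 7SL-matched livers. The largest difference was at Dnajb9, which encodes ERdj4, a co-chaperone that directs BiP to its clients. Dnajb9 had 0.981, 1.2 and 1.39 in RAD001 livers and 1.33, 1.61 and 2.4 in vehicle livers, and 0.702, 0.831 and 1.01 in RAD001 gastrocnemius and 0.606, 0.738 and 0.986 in vehicle gastrocnemius. For this gene 1 of 8 treated livers and 7 of 8 treated muscles fell inside the vehicle range. Its interaction was -0.63 (SE 0.131, adjusted p = 0.00711). In the 7SL-matched comparison it was -0.62 (unadjusted p = 0.000289, adjusted p = 0.113) and was not called. Hsp90b1, the Hsp90 of the endoplasmic reticulum (GRP94), had 5.33, 6.82 and 7.02 in RAD001 livers and 6.59, 9.21 and 13.3 in vehicle livers, a change of -0.56 (SE 0.105, adjusted p = 0.00323). In gastrocnemius it had 0.725, 0.871 and 0.974 on RAD001 and 0.849, 0.973 and 1.11 on vehicle, a change of -0.16 (SE 0.057, adjusted p = 0.119). Within the vehicle libraries lay 5 of 8 RAD001 livers and 4 of 8 RAD001 muscles. Its interaction of -0.40 (SE 0.122, adjusted p = 0.0453) was -0.19 (unadjusted p = 0.106) in the 7SL-matched comparison, and its call was lost when any of 22 single libraries was left out and under upper quartile scaling. Canx, a lectin chaperone of glycoproteins, had an interaction of -0.31, adjusted p = 0.0394, which was -0.13 in the 7SL-matched comparison. Atf6, the factor that binds the element above, had one of -0.38, adjusted p = 0.0305 without a call in either tissue. The 7SL-matched interaction of Atf6 was -0.38.

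Of 19 heat shock protein genes tested, 6 fell and 2 rose in liver (9.07% and 8.79% of all loci did), and 2, Hspd1 and Hspe1, fell in gastrocnemius (1.26%). Only Chordc1, a co-chaperone of Hsp90, passed the interaction (4.96% of all loci did), at -0.59, adjusted p = 0.035. That call was lost in 10 of 45 alternatives, and the interaction of Chordc1 was -0.28 in the 7SL-matched comparison. Hspa8 fell in liver, with a change of -0.48, adjusted p = 0.0165, and had a change of -0.02, adjusted p = 0.828 in gastrocnemius, with an interaction of -0.45, adjusted p = 0.054. The list's median change was -0.16 in liver and 0.01 in gastrocnemius, and -0.06 in the 7SL-matched livers.

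Of 31 proteasome subunits tested, 8 fell and none rose in gastrocnemius (1.26% of all loci fell there). In liver 6 fell and 3 rose (9.07% and 8.79% of all loci), and 3 had a higher change in liver by the interaction (2.34% of all loci did). The median change was -0.03 in liver, 0.0063 in the 7SL-matched livers and -0.12 in gastrocnemius. Psmc6, an ATPase subunit of the regulatory particle, was lower in both. Its coverage was 2, 2.12 and 2.59 in RAD001 livers and 2.45, 2.81 and 3.75 in vehicle livers. In gastrocnemius it was 2.32, 2.82 and 3.07 on RAD001 and 3.07, 3.29 and 3.61 on vehicle. Inside the vehicle range were 2 of 8 livers and none of 8 muscles on RAD001. The changes were -0.38 (SE 0.0767, adjusted p = 0.00454) in liver and -0.25 (SE 0.0512, adjusted p = 0.0116) in gastrocnemius. Psmd14, the deubiquitinase of the lid, and Psma2, a subunit of the core, were shared lower too. Psmb4, a subunit of the catalytic core, fell in gastrocnemius alone, with 10.7, 11.7 and 13.5 in RAD001 gastrocnemius and 13.6, 14 and 15.5 in vehicle gastrocnemius, a change of -0.28 (SE 0.0464, adjusted p = 0.00514). In liver it had 8.99, 9.98 and 11.5 on RAD001 and 9.09, 10.2 and 10.9 on vehicle, a change of 0.02 (SE 0.0565, adjusted p = 0.819), and the interaction was 0.30 (SE 0.0689, adjusted p = 0.0129). The treated libraries that overlapped the vehicle range numbered 5 of 8 in liver and none of 8 in gastrocnemius. Psmd3 and Psmb5, by contrast, rose in liver (log2 0.27 and 0.21) and had changes of -0.11 and -0.10 in muscle, neither called, with interactions of 0.38 and 0.31 (adjusted p = 0.0147 for both).

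Ubd had a large change in both tissues. It encodes FAT10, a ubiquitin-like modifier that targets proteins to the proteasome and is induced by inflammatory cytokines, and it lies at chromosome 20, 3917781 to 3919728, minus strand (rn5). Its coverage was 0, 0.0135 and 3.77 in RAD001 livers and 2.65, 8.14 and 19.8 in vehicle livers. In gastrocnemius it was 0.01, 0.0494 and 0.199 on RAD001 and 0.101, 0.487 and 1.07 on vehicle. Of the 8 RAD001 libraries per tissue, 3 in liver and 3 in gastrocnemius lay within the vehicle range. Ubd was listed at 0 in 2 treated livers. The change was -4.14 (SE 0.765, adjusted p = 0.00297) in liver and -1.75 (SE 0.281, adjusted p = 0.00399) in gastrocnemius, sizes that depend on the pseudocount of 0.1 where coverage is near 0. The treated medians lay under the filter value of 0.1 in both tissues. Ubd therefore entered the test through the vehicle libraries, where it is high, and genes low in both groups could not. The interaction was -2.39 (95% interval -4.15 to -0.63, adjusted p = 0.0927). In the list of 36 interferon response genes, 2 rose and 2 fell in liver (8.79% and 9.07% of all loci) and Ubd alone fell in gastrocnemius (1.26%), with list medians of -0.14 and -0.13.

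Of the other shared lower genes, Hsd17b12, the ketoacyl reductase of very long chain fatty acid elongation, had 2.37, 2.51 and 2.95 in RAD001 livers and 2.6, 3.23 and 3.92 in vehicle livers, and 0.245, 0.333 and 0.378 in RAD001 gastrocnemius and 0.378, 0.42 and 0.496 in vehicle gastrocnemius. Among treated libraries, 3 of 8 livers and 1 of 8 muscles were inside the range of the vehicle libraries. Its changes were -0.34 (SE 0.0711, adjusted p = 0.0051) in liver and -0.32 (SE 0.0663, adjusted p = 0.0125) in gastrocnemius. Timm44, which tethers the mitochondrial import motor to the inner membrane, had 1.22, 1.27 and 1.39 in RAD001 livers and 1.33, 1.53 and 1.7 in vehicle livers, and 1.43, 1.67 and 2.06 in RAD001 gastrocnemius and 1.947, 2.06 and 2.32 in vehicle gastrocnemius. The vehicle range held 2 of the 8 RAD001 livers and 1 of the 8 RAD001 muscles. Its changes were -0.22 (SE 0.0574, adjusted p = 0.0141) in liver and -0.29 (SE 0.0555, adjusted p = 0.00913) in gastrocnemius. Across the 23 shared lower loci the median change was -0.32 in liver and -0.29 in gastrocnemius. All 23 kept their sign in the 7SL-matched livers (5938 of all 7534 loci did), with a median of -0.24. Those livers are part of the libraries that chose the loci, so this is no separate support. At these loci, which were chosen by their calls on the same libraries, RAD001 and vehicle libraries stood fully apart at 1 of the 23 in liver and at 4 in gastrocnemius. They did so at 0.783% and 0.279% of all loci tested.

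**Figure D3:**
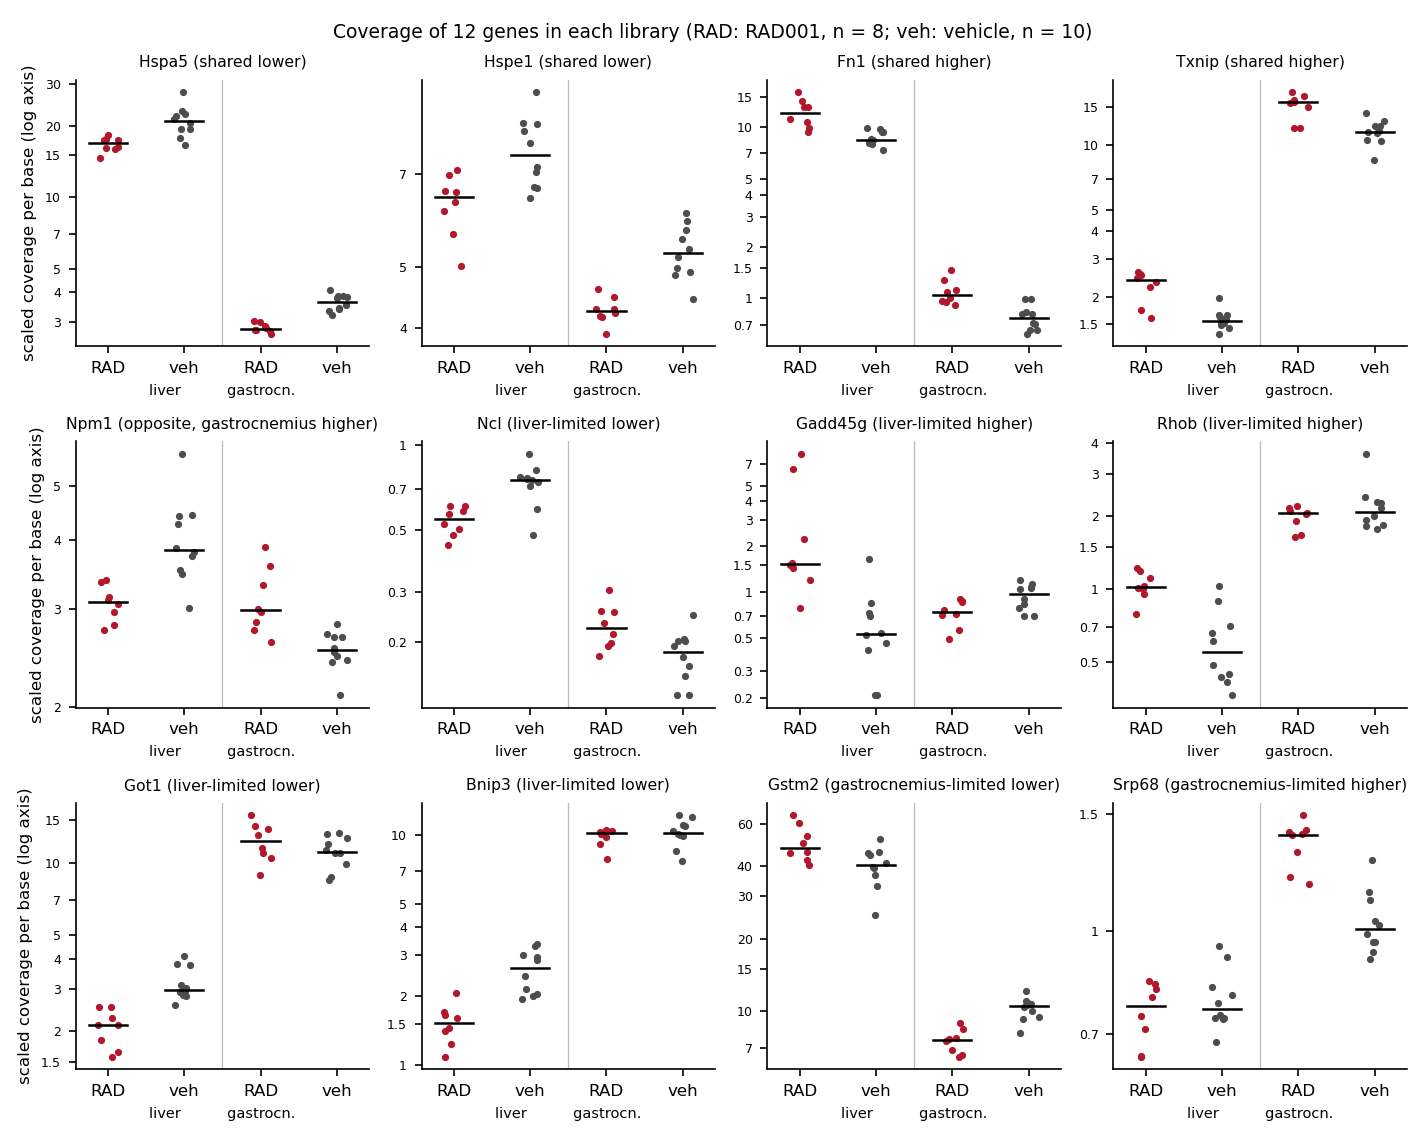
Scaled coverage per base (log axis) of 12 genes in each library of liver and gastrocnemius, with 1 point per library, RAD001 in red and vehicle in grey, and a line at the group median. Hspa5 lies lower on RAD001 in both tissues, Npm1 lower in liver and higher in gastrocnemius, Rhob higher in liver and Gstm2 lower in gastrocnemius.

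Fn1 and Plec were among the 26 shared higher loci. Fn1, which encodes the matrix glycoprotein fibronectin and lies at chromosome 9, 78674439 to 78743407, minus strand (rn5), had 9.34, 12.1 and 16 in RAD001 livers and 7.32, 8.42 and 9.85 in vehicle livers. Its coverage in muscle was 0.919, 1.04 and 1.47 on RAD001 and 0.62, 0.765 and 0.997 on vehicle. Overlap with the vehicle range was seen for 1 of 8 treated livers and 3 of 8 treated muscles. The changes were 0.47 (SE 0.0933, adjusted p = 0.00402) in liver and 0.45 (SE 0.0931, adjusted p = 0.0131) in gastrocnemius, and their difference was 0.02 (95% interval -0.25 to 0.30, adjusted p = 0.947). Plec, the cytolinker plectin, had 0.431, 0.594 and 0.646 in RAD001 livers and 0.299, 0.403 and 0.585 in vehicle livers, and 4.29, 5.04 and 8.33 in RAD001 gastrocnemius and 3.18, 3.74 and 4.81 in vehicle gastrocnemius. For this gene 3 of 8 treated livers and 3 of 8 treated muscles fell inside the vehicle range. It rose by 0.36 (SE 0.101, adjusted p = 0.0191) in liver and 0.51 (SE 0.119, adjusted p = 0.0236) in gastrocnemius. Further members were Pxn and Tln1 of focal adhesions, Lrp1, an endocytic receptor, and Pdgfrb, the receptor of pericytes and fibroblasts, chosen after their values were seen. Of 7 tested stellate cell and fibroblast markers, Pdgfrb among them, 1 rose in liver and 2 in gastrocnemius (8.79% and 1.43% of all loci). The median change of these markers was -0.03 in each tissue. In the list of 23 collagen and matrix genes, 5 rose and 1 fell in liver (8.79% and 9.07% of all loci) and Fn1 alone rose in gastrocnemius (1.43%), with medians of 0.08 and 0.06.

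Txnip, which binds thioredoxin and limits glucose uptake, was another shared higher gene. It had 1.61, 2.39 and 2.6 in RAD001 livers and 1.35, 1.55 and 1.98 in vehicle livers, and 12, 15.7 and 17.5 in RAD001 gastrocnemius and 8.53, 11.5 and 14 in vehicle gastrocnemius. Within the vehicle libraries lay 2 of 8 RAD001 livers and 2 of 8 RAD001 muscles. The changes were 0.47 (SE 0.0888, adjusted p = 0.00323) in liver and 0.38 (SE 0.0866, adjusted p = 0.0218) in gastrocnemius. Yap1, the coactivator of the Hippo pathway, had 0.88, 0.939 and 1.155 in RAD001 livers and 0.696, 0.764 and 0.973 in vehicle livers, and 1.14, 1.4 and 1.71 in RAD001 gastrocnemius and 0.899, 1.155 and 1.24 in vehicle gastrocnemius. Inside the vehicle range were 5 of 8 livers and 1 of 8 muscles on RAD001. It rose by 0.25 (SE 0.0657, adjusted p = 0.0153) in liver and 0.33 (SE 0.0745, adjusted p = 0.0218) in gastrocnemius. The gastrocnemius calls of Yap1 and Plec were each lost when either of 2 single libraries was left out. Zfp598, the ubiquitin ligase that marks collided ribosomes, had 0.408, 0.494 and 0.539 in RAD001 livers and 0.244, 0.349 and 0.441 in vehicle livers, and 0.45, 0.5 and 0.605 in RAD001 gastrocnemius and 0.318, 0.382 and 0.458 in vehicle gastrocnemius. The treated libraries that overlapped the vehicle range numbered 2 of 8 in liver and 1 of 8 in gastrocnemius. Its changes were 0.34 (SE 0.0795, adjusted p = 0.00864) in liver and 0.35 (SE 0.0652, adjusted p = 0.00815) in gastrocnemius, with a difference of -0.0049 (95% interval -0.21 to 0.20, adjusted p = 0.984). The median change of the 26 loci was 0.29 in liver and 0.32 in gastrocnemius. All 26 kept their sign in the 7SL-matched livers (median 0.21), which are part of the libraries that chose them. Of all 7534 loci, 5938 kept it. Among the 49 shared loci 2 differed in size by the interaction: Mta1, a subunit of a chromatin remodelling complex (0.49, adjusted p = 0.000323 in liver, 0.19, adjusted p = 0.0439 in gastrocnemius), and Rpl22l1, a paralog of a ribosomal protein (-0.64, adjusted p = 0.00294 and -0.21, adjusted p = 0.0406).

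One gene of ribosome assembly was called in opposite directions. Npm1 encodes nucleophosmin, a nucleolar chaperone of ribosome assembly, and lies at chromosome 10, 17965977 to 17975978, minus strand (rn5). It was lower on RAD001 in liver, with 2.76, 3.09 and 3.38 in RAD001 livers and 3.02, 3.83 and 5.71 in vehicle livers. It was higher in gastrocnemius, with 2.61, 2.98 and 3.88 in RAD001 gastrocnemius and 2.1, 2.53 and 2.82 in vehicle gastrocnemius. Of the 8 RAD001 libraries per tissue, 5 in liver and 2 in gastrocnemius lay within the vehicle range. The changes were -0.36 (SE 0.0891, adjusted p = 0.0113) in liver and 0.28 (SE 0.0693, adjusted p = 0.034) in gastrocnemius, and the interaction was -0.64 (SE 0.115, adjusted p = 0.00416), with an interval of -0.88 to -0.41 (95%). In the 7SL-matched comparison the interaction was -0.44 (unadjusted p = 0.000285). The gastrocnemius call was lost when any of 6 single libraries was left out, with an adjusted p of up to 0.0624.

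Ncl, which encodes nucleolin, a factor of ribosomal RNA transcription and processing, was called in liver and by the interaction. Its coverage was 0.441, 0.547 and 0.607 in RAD001 livers and 0.481, 0.755 and 0.933 in vehicle livers, and 0.179, 0.224 and 0.305 in RAD001 gastrocnemius and 0.129, 0.185 and 0.249 in vehicle gastrocnemius. Among treated libraries, 7 of 8 livers and 5 of 8 muscles were inside the range of the vehicle libraries. The changes were -0.37 (SE 0.0883, adjusted p = 0.0094) in liver and 0.24 (SE 0.0856, adjusted p = 0.121) in gastrocnemius. The interaction of -0.61 (SE 0.125, adjusted p = 0.00711) was -0.54 (unadjusted p = 0.000772) in the 7SL-matched comparison. Of 36 tested ribosome biogenesis genes, these 2 passed the interaction (4.96% of all loci did). Of the others, Dkc1 rose in liver (0.56, adjusted p = 0.00692) and Bysl in gastrocnemius (0.44, adjusted p = 0.011), and the list's median change was -0.01 in liver and -0.04 in gastrocnemius. The remaining opposite loci were Morf4l1, at its locus on chromosome 13 (-0.23, adjusted p = 0.02 in liver and 0.18, adjusted p = 0.0499 in gastrocnemius), and RGD1566239 (0.32, adjusted p = 0.0419 and -0.28, adjusted p = 0.034), a locus without a gene name in the table. Morf4l1 has a second locus on chromosome 8 and Npm1 has processed pseudogenes, so the split of reads between copies is uncertain.

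Of 70 ribosomal protein genes tested, 4 had a higher change in liver by the interaction (Rpl13, Rpl6, Rplp0 and Rps2; 2.34% of all loci did) and none a lower one. In liver 6 rose and 1 fell, against 8.79% and 9.07% of all loci, and in gastrocnemius 1 fell, against 1.26%. The medians were 0.05 in liver, 0.01 in the 7SL-matched livers and -0.04 in gastrocnemius. Rpl13, a protein of the large subunit, had 1.89, 2.21 and 2.6 in RAD001 livers and 1.13, 1.67 and 2.18 in vehicle livers, and 1.59, 1.94 and 2.37 in RAD001 gastrocnemius and 1.93, 2.06 and 2.67 in vehicle gastrocnemius. The vehicle range held 4 of the 8 RAD001 livers and 4 of the 8 RAD001 muscles. Its interaction was 0.58 (SE 0.137, adjusted p = 0.0147), and 0.40 (unadjusted p = 0.00479) in the 7SL-matched comparison. Ribosomal protein genes have many processed pseudogenes, and the way in which reads were divided among them is not known here.

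Among 29 translation factors, 5 had a lower and 1 a higher change in liver by the interaction (2.63% and 2.34% of all loci did). In liver 4 rose and 4 fell (8.79% and 9.07% of all loci), and in gastrocnemius 1 rose and 1 fell (1.43% and 1.26%). The list's median change was -0.03 in liver and -0.01 in gastrocnemius, and its median interaction was 0.02. Eif3a, the largest subunit of the eIF3 initiation complex, was called in gastrocnemius. It had 1.58, 1.76 and 1.93 in RAD001 livers and 1.68, 1.99 and 2.43 in vehicle livers, and 1.14, 1.39 and 1.65 in RAD001 gastrocnemius and 0.879, 1.14 and 1.35 in vehicle gastrocnemius. Overlap with the vehicle range was seen for 5 of 8 treated livers and 3 of 8 treated muscles. The change was 0.29 (SE 0.077, adjusted p = 0.0437) in gastrocnemius and -0.18 (SE 0.0656, adjusted p = 0.0596) in liver, with an interaction of -0.47 (SE 0.102, adjusted p = 0.00887). Eif4a2, an RNA helicase of initiation, was liver-limited lower (-0.34, adjusted p = 0.0153 in liver), as were Eif5 (-0.36, adjusted p = 0.00854) and Eif2a (-0.19, adjusted p = 0.0358), and Tpt1 passed the interaction alone (-0.42, adjusted p = 0.027). The 1 in the other direction was Eef1g, a subunit of the elongation factor complex (0.29, adjusted p = 0.023). Eef1g rose in liver, as did Eef2, Eif3f and Pabpc1, which did not pass the interaction. Eif2s1, the subunit phosphorylated in the integrated stress response, was shared lower (-0.41, adjusted p = 0.00755 in liver and -0.18, adjusted p = 0.035 in gastrocnemius).

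Of 38 tested components of the mTORC1 pathway, 3 rose and 3 fell in liver (8.79% and 9.07% of all loci), 2 rose in gastrocnemius (1.43%) and 1 passed the interaction (4.96%). That gene was Fnip1, the partner of folliculin, which acts on the Rag GTPases that bring mTORC1 to the lysosome. Fnip1 had 0.348, 0.444 and 0.512 in RAD001 livers and 0.631, 0.702 and 0.92 in vehicle livers. In muscle it had 1.11, 1.28 and 1.42 on RAD001 and 1.18, 1.33 and 1.67 on vehicle. For this gene none of 8 treated livers and 5 of 8 treated muscles fell inside the vehicle range. The change was -0.62 (SE 0.0811, adjusted p = 0.000285) in liver and -0.10 (SE 0.064, adjusted p = 0.369) in gastrocnemius, and the interaction -0.51 (SE 0.105, adjusted p = 0.00711) was -0.40 (unadjusted p = 0.00072) in the 7SL-matched comparison. Folliculin itself, Flcn, fell in liver (-0.29, adjusted p = 0.0235) and did not pass the interaction (-0.28, adjusted p = 0.0939). Mtor, the kinase, had 0.445, 0.592 and 0.683 in RAD001 livers and 0.454, 0.571 and 0.66 in vehicle livers. In gastrocnemius it had 0.909, 0.98 and 1.1 on RAD001 and 0.75, 0.863 and 0.91 on vehicle. Within the vehicle libraries lay 6 of 8 RAD001 livers and 1 of 8 RAD001 muscles. It rose in gastrocnemius by 0.21 (SE 0.0524, adjusted p = 0.034), a call lost when any of 8 single libraries was left out, and had a change of 0.04 (SE 0.0683, adjusted p = 0.676) in liver. Its interaction was -0.17 (95% interval -0.34 to 0.0028, adjusted p = 0.228). Rptor, the mTORC1 scaffold, and Eif4ebp1, a repressor of cap-dependent translation that mTORC1 phosphorylates, were called in neither tissue (interactions of -0.10, adjusted p = 0.551 and 0.27, adjusted p = 0.162).

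**Figure D4:**
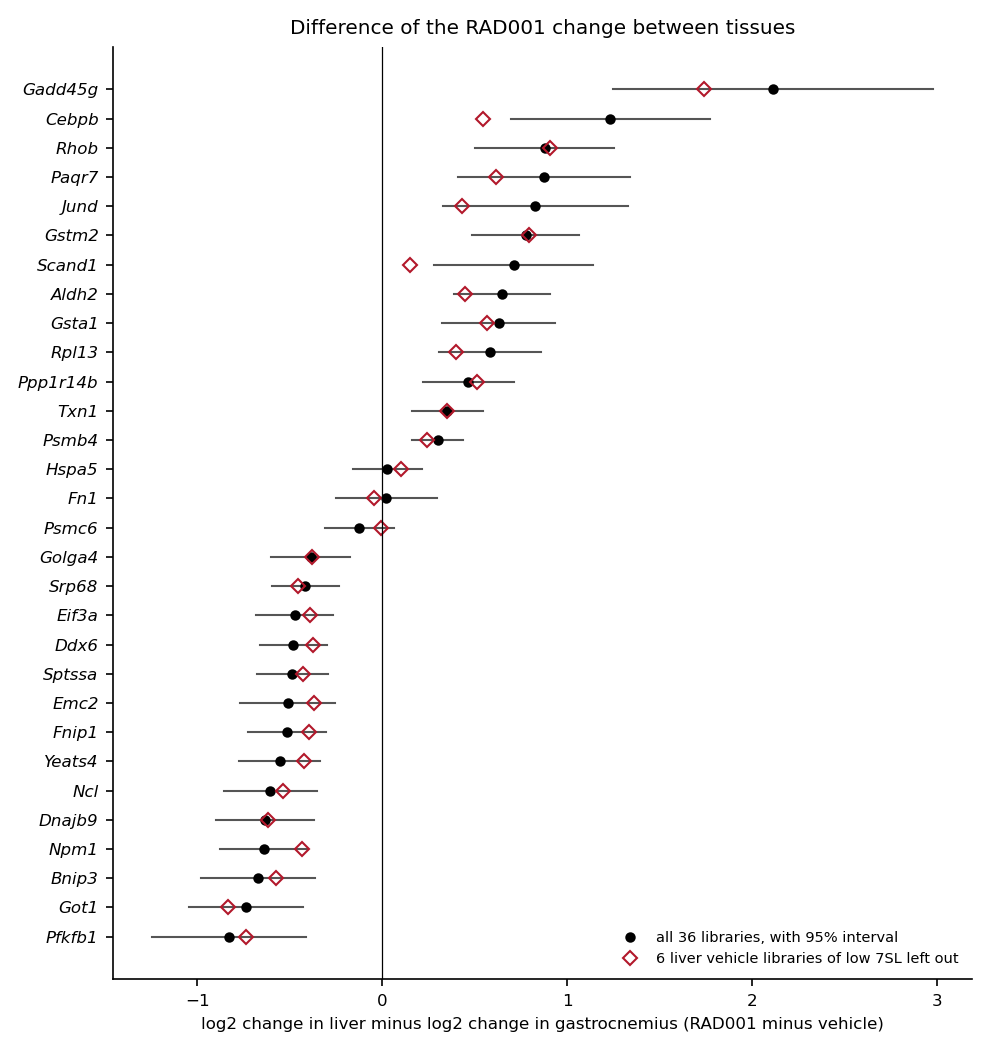
Difference of the RAD001 change between tissues (log2 change in liver minus log2 change in gastrocnemius) for 30 named genes, as filled points with 95% intervals over all 36 libraries and as open diamonds without the 6 vehicle livers of low 7SL. Rhob, Gstm2, Got1 and Dnajb9 have diamonds close to their points, while those of Cebpb and Scand1 lie nearer 0.

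Gadd45g, Rhob, Cebpb and Jund were among the liver-limited rises. Gadd45g, a stress-induced regulator of MAP kinase signalling and growth arrest, lies at chromosome 17, 15469297 to 15471042, minus strand (rn5). It had 0.782, 1.53 and 8.19 in RAD001 livers and 0.208, 0.5264 and 1.65 in vehicle livers. In gastrocnemius it had 0.487, 0.743 and 0.904 on RAD001 and 0.693, 0.972 and 1.2 on vehicle. Inside the vehicle range were 5 of 8 livers and 6 of 8 muscles on RAD001. The change was 1.79 (SE 0.385, adjusted p = 0.00589) in liver and -0.32 (SE 0.113, adjusted p = 0.112) in gastrocnemius. Its interaction of 2.11 (SE 0.427, adjusted p = 0.00711) was the largest positive one of any locus and was 1.74 (unadjusted p = 0.000985) in the 7SL-matched comparison.

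Rhob, a small GTPase induced by growth factors and stress, lies at chromosome 6, 43472713 to 43474862, minus strand (rn5) and was 1 of 7 loci that the 7SL-matched interaction still called. It had 0.791, 1.02 and 1.23 in RAD001 livers and 0.365, 0.552 and 1.03 in vehicle livers. Its coverage in muscle was 1.64, 2.06 and 2.2 on RAD001 and 1.78, 2.08 and 3.63 on vehicle. The treated libraries that overlapped the vehicle range numbered 4 of 8 in liver and 6 of 8 in gastrocnemius. The change was 0.74 (SE 0.145, adjusted p = 0.00402) in liver and -0.13 (SE 0.103, adjusted p = 0.485) in gastrocnemius, and the interaction 0.88 (SE 0.187, adjusted p = 0.00832), or 0.90 (unadjusted p = 7.5e-06) when 7SL-matched. Of 18 immediate early genes tested, 6 rose in liver (Gadd45g, Rhob, Jund, Jun, Ier2 and Ier5; 8.79% of all loci rose there), 2 rose in gastrocnemius (Dusp6 and Klf10; 1.43%) and 3 passed the interaction (4.96%). Their median change was 0.42 in liver, 0.19 in the 7SL-matched livers and 0.09 in gastrocnemius.

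Cebpb, a leucine zipper factor of the fasting and acute phase responses of liver, had 1.98, 2.68 and 3.42 in RAD001 livers and 0.53, 1.41 and 2.47 in vehicle livers, and 1.77, 2.05 and 2.34 in RAD001 gastrocnemius and 1.78, 2.31 and 2.74 in vehicle gastrocnemius. Of the 8 RAD001 libraries per tissue, 3 in liver and 7 in gastrocnemius lay within the vehicle range. The change was 1.08 (SE 0.237, adjusted p = 0.0067) in liver and -0.16 (SE 0.0814, adjusted p = 0.276) in gastrocnemius. The interaction of 1.23 (SE 0.265, adjusted p = 0.00872) was 0.55 (unadjusted p = 0.0011) when 7SL-matched, over 1.5 times smaller. Jund, a subunit of AP-1, had 2.45, 3.87 and 5.03 in RAD001 livers and 0.985, 2.07 and 3.51 in vehicle livers, and 2.07, 2.38 and 3.39 in RAD001 gastrocnemius and 1.87, 2.23 and 2.81 in vehicle gastrocnemius. Among treated libraries, 3 of 8 livers and 6 of 8 muscles were inside the range of the vehicle libraries. Its interaction was 0.83 (SE 0.246, adjusted p = 0.0423) and 0.43 (unadjusted p = 0.0307) when 7SL-matched, and the call was lost when any of 20 single libraries was left out. Atf5, a factor of the integrated stress response, was liver-limited higher too (0.61, adjusted p = 0.0147). In the list of 14 gluconeogenesis and fasting genes 5 rose in liver (8.79% of all loci did), among them Pdk4, the kinase that shuts pyruvate dehydrogenase (1.14, adjusted p = 0.00235 in liver and 0.40, adjusted p = 0.426 in gastrocnemius, interaction 0.74, adjusted p = 0.218), and none in gastrocnemius. Their medians were 0.27 in liver, 0.16 in the 7SL-matched livers and 0.10 in gastrocnemius.

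The other liver-limited rises that the naming rule selected were Paqr7, Aldh2 and Scand1. Paqr7, a membrane progesterone receptor, had 1.03, 1.33 and 2.24 in RAD001 livers and 0.347, 0.613 and 1.55 in vehicle livers, and 0.149, 0.225 and 0.253 in RAD001 gastrocnemius and 0.125, 0.193 and 0.283 in vehicle gastrocnemius. The vehicle range held 6 of the 8 RAD001 livers and 8 of the 8 RAD001 muscles. Its interaction was 0.88 (SE 0.23, adjusted p = 0.025), and 0.62 (unadjusted p = 0.0226) when 7SL-matched. Aldh2, the mitochondrial acetaldehyde dehydrogenase, had 13, 18.1 and 22.4 in RAD001 livers and 9.59, 12.3 and 14.7 in vehicle livers, and 3.82, 4 and 5.23 in RAD001 gastrocnemius and 4.02, 4.52 and 5.62 in vehicle gastrocnemius. Overlap with the vehicle range was seen for 1 of 8 treated livers and 4 of 8 treated muscles. The interaction of Aldh2 was 0.65 (SE 0.129, adjusted p = 0.00647), and 0.45 (unadjusted p = 0.00282) when 7SL-matched. Scand1, a SCAN domain protein, had 3.13, 3.85 and 4.38 in RAD001 livers and 1.3, 2.64 and 3.99 in vehicle livers, and 3.11, 3.86 and 4.57 in RAD001 gastrocnemius and 3.51, 3.96 and 4.48 in vehicle gastrocnemius. For this gene 6 of 8 treated livers and 5 of 8 treated muscles fell inside the vehicle range. Its interaction of 0.71 (SE 0.212, adjusted p = 0.0429) was 0.15 (unadjusted p = 0.201) when 7SL-matched, and the call was lost when any of 20 single libraries was left out.

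Got1, Pfkfb1, Bnip3, Sptssa and Yeats4 were among the liver-limited falls. Got1, the cytosolic aspartate aminotransferase of the malate-aspartate shuttle, lies at chromosome 1, 270691424 to 270714958, minus strand (rn5) and had 1.57, 2.13 and 2.52 in RAD001 livers and 2.58, 2.98 and 4.1 in vehicle livers. In gastrocnemius it had 8.89, 12.3 and 15.8 on RAD001 and 8.45, 11.1 and 13.2 on vehicle. Within the vehicle libraries lay none of 8 RAD001 livers and 5 of 8 RAD001 muscles. The change was -0.60 (SE 0.102, adjusted p = 0.00167) in liver and 0.14 (SE 0.104, adjusted p = 0.464) in gastrocnemius. The interaction was -0.74 (SE 0.152, adjusted p = 0.00711), and -0.84 (unadjusted p = 3.63e-05) with the call kept when 7SL-matched. Pfkfb1, the enzyme that sets fructose 2,6-bisphosphate and thereby the balance of glycolysis and gluconeogenesis, had 0.394, 0.584 and 0.794 in RAD001 livers and 0.877, 1.1 and 2.38 in vehicle livers. In gastrocnemius it had 1.17, 1.6 and 2.08 on RAD001 and 1.11, 1.61 and 2.38 on vehicle. Inside the vehicle range were none of 8 livers and 8 of 8 muscles on RAD001. Its interaction was -0.83 (SE 0.205, adjusted p = 0.018), and -0.74 (unadjusted p = 0.00121) when 7SL-matched. Pfkfb1 was the 1 gene of 16 tested in the glycolysis and glycogen list that passed the interaction (4.96% of all loci did).

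Bnip3, a mitophagy receptor induced by hypoxia and fasting, had 1.08, 1.52 and 2.06 in RAD001 livers and 1.93, 2.64 and 3.35 in vehicle livers. Its coverage in muscle was 7.84, 10.2 and 10.6 on RAD001 and 7.74, 10.3 and 12.2 on vehicle. The treated libraries that overlapped the vehicle range numbered 1 of 8 in liver and 8 of 8 in gastrocnemius. The change was -0.73 (SE 0.123, adjusted p = 0.00163) in liver and -0.06 (SE 0.0787, adjusted p = 0.716) in gastrocnemius, with an interaction of -0.67 (SE 0.152, adjusted p = 0.0118), or -0.58 (unadjusted p = 0.00157) when 7SL-matched. In the list of 51 lysosome and autophagy genes 7 rose and 11 fell in liver (8.79% and 9.07% of all loci), none was called in gastrocnemius (2.69%) and 3 passed the interaction (4.96%). Bnip3 was among these, as was Map1lc3a, which encodes the autophagosome protein LC3A, with an interaction of 0.46, adjusted p = 0.0212. The medians of the list were -0.04 in liver and 0.0049 in gastrocnemius.

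Sptssa, the small subunit that activates serine palmitoyltransferase, the first enzyme of sphingolipid synthesis, had 4.01, 4.72 and 4.87 in RAD001 livers and 5.55, 7.31 and 8.16 in vehicle livers. In gastrocnemius it had 0.533, 0.654 and 0.77 on RAD001 and 0.618, 0.724 and 0.795 on vehicle. Of the 8 RAD001 libraries per tissue, none in liver and 5 in gastrocnemius lay within the vehicle range. The change was -0.63 (SE 0.0718, adjusted p = 0.000107) in liver and -0.14 (SE 0.0636, adjusted p = 0.199) in gastrocnemius. The interaction was -0.49 (SE 0.095, adjusted p = 0.00549), and -0.43 (unadjusted p = 0.000451) when 7SL-matched. Yeats4, a reader of acylated histones, had 0.892, 1.13 and 1.24 in RAD001 livers and 1.35, 1.7 and 2.28 in vehicle livers, and 1.75, 2.01 and 2.48 in RAD001 gastrocnemius and 1.72, 2.01 and 2.49 in vehicle gastrocnemius. Among treated libraries, none of 8 livers and 8 of 8 muscles were inside the range of the vehicle libraries. Its interaction was -0.55 (SE 0.109, adjusted p = 0.00549), and -0.42 (unadjusted p = 0.00105) when 7SL-matched. Over the liver-limited classes, which were chosen by their liver call, the libraries stood fully apart in liver at 19 of 132 higher and 13 of 137 lower loci (0.783% of all loci tested), and at none in gastrocnemius (0.279%). Of 58 oxidative phosphorylation genes, 2 had a lower change in liver by the interaction (2.63% of all loci did), Cox6c (-0.42, adjusted p = 0.0225) and Atp5j (-0.48, adjusted p = 0.0367). The call of Atp5j was lost in 13 of 46 alternatives and that of Cox6c in 2. When 7SL-matched, the interaction of Atp5j was -0.30 and that of Cox6c -0.39. None of 54 mitochondrial ribosomal protein genes and none of 27 fatty acid oxidation genes passed the interaction in limma (4.96% of all loci did). In liver 9 mitochondrial ribosomal protein genes fell and 1 rose (9.07% and 8.79% of all loci), and 2 fell in gastrocnemius (1.26%).

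Srp68, Ddx6, Golga4 and Emc2 were among the 16 gastrocnemius-limited rises. Srp68, the subunit of the signal recognition particle that binds 7SL RNA, lies at chromosome 10, 104791135 to 104818668, minus strand (rn5). It had 1.18, 1.4 and 1.49 in RAD001 gastrocnemius and 0.909, 1.01 and 1.28 in vehicle gastrocnemius. In liver it had 0.647, 0.771 and 0.842 on RAD001 and 0.682, 0.763 and 0.951 on vehicle. The vehicle range held 6 of the 8 RAD001 livers and 2 of the 8 RAD001 muscles. The change was 0.36 (SE 0.0612, adjusted p = 0.00514) in gastrocnemius and -0.06 (SE 0.0669, adjusted p = 0.548) in liver, and the interaction was -0.42 (SE 0.0903, adjusted p = 0.00939). Ddx6, a helicase of mRNA storage and decay in P-bodies, had 1.1, 1.18 and 1.31 in RAD001 gastrocnemius and 0.867, 0.955 and 1.09 in vehicle gastrocnemius. In liver it had 0.971, 1.19 and 1.35 on RAD001 and 1.17, 1.29 and 1.7 on vehicle. Overlap with the vehicle range was seen for 4 of 8 treated livers and none of 8 treated muscles. Its change was 0.28 (SE 0.0523, adjusted p = 0.00815) in gastrocnemius and -0.20 (SE 0.0725, adjusted p = 0.0537) in liver, with an interaction of -0.48 (SE 0.0886, adjusted p = 0.00416). Golga4, a golgin of the trans-Golgi network, had 1.62, 1.87 and 2.28 in RAD001 gastrocnemius and 1.17, 1.44 and 1.97 in vehicle gastrocnemius, and 0.749, 1.01 and 1.06 in RAD001 livers and 0.917, 1.05 and 1.1 in vehicle livers. For this gene 6 of 8 treated livers and 6 of 8 treated muscles fell inside the vehicle range. The interaction of Golga4 was -0.39 (SE 0.106, adjusted p = 0.0293). Emc2, a subunit of the complex that inserts membrane proteins into the endoplasmic reticulum, had 1.83, 2.16 and 2.34 in RAD001 gastrocnemius and 1.32, 1.71 and 2.15 in vehicle gastrocnemius, and 0.874, 1.05 and 1.3 in RAD001 livers and 0.954, 1.3 and 1.6 in vehicle livers. Within the vehicle libraries lay 5 of 8 RAD001 livers and 3 of 8 RAD001 muscles. Its interaction was -0.51 (SE 0.126, adjusted p = 0.0177). The gastrocnemius call of Golga4 was lost when any of 13 single libraries was left out, that of Emc2 when any of 14 was, and that of Eif3a when any of 10 was.

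Gstm2, Gsta1, Txn1 and Ppp1r14b were among the 14 gastrocnemius-limited falls. Gstm2, a mu class glutathione transferase, lies at chromosome 2, 230247260 to 230251618, minus strand (rn5) and had 6.42, 7.54 and 8.86 in RAD001 gastrocnemius and 8.12, 10.5 and 12.1 in vehicle gastrocnemius. In liver it had 40.6, 47.9 and 65.3 on RAD001 and 25.1, 40.5 and 51.8 on vehicle. Inside the vehicle range were 5 of 8 livers and 2 of 8 muscles on RAD001. The change was -0.45 (SE 0.0718, adjusted p = 0.00399) in gastrocnemius and 0.33 (SE 0.12, adjusted p = 0.0601) in liver, so that the interaction of 0.77 (SE 0.144, adjusted p = 0.00416) was the largest among the gastrocnemius-limited loci, and it was 0.79 (unadjusted p = 6.3e-05) when 7SL-matched. Gsta1, an alpha class glutathione transferase, had 4.9, 5.81 and 7.58 in RAD001 gastrocnemius and 7.09, 8.97 and 13.2 in vehicle gastrocnemius. In liver, where it is abundant, it had 51.9, 71.9 and 80.8 on RAD001 and 48.9, 71.1 and 84.7 on vehicle. The treated libraries that overlapped the vehicle range numbered 8 of 8 in liver and 1 of 8 in gastrocnemius. Its change was -0.63 (SE 0.102, adjusted p = 0.00399) in gastrocnemius and -0.0047 (SE 0.106, adjusted p = 0.983) in liver, with an interaction of 0.63 (SE 0.151, adjusted p = 0.0154). Both belong to families of near-identical genes, so reads may be shared with paralogs. Txn1, thioredoxin, had 7.58, 7.79 and 10.3 in RAD001 gastrocnemius and 8.54, 10.2 and 12.8 in vehicle gastrocnemius, and 17.4, 19.8 and 21 in RAD001 livers and 15.9, 19.1 and 21.8 in vehicle livers. Of the 8 RAD001 libraries per tissue, 8 in liver and 1 in gastrocnemius lay within the vehicle range. The change was -0.31 (SE 0.0706, adjusted p = 0.022) in gastrocnemius and 0.04 (SE 0.0648, adjusted p = 0.682) in liver. Its interaction was 0.35 (SE 0.0949, adjusted p = 0.0286).

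Of 23 tested targets of the antioxidant factor Nrf2, 3 fell in gastrocnemius (Gstm2, Txn1 and Nqo1) and none rose (1.26% and 1.43% of all loci), 1 fell in liver (9.07%), and 2 passed the interaction (4.96%). Nqo1, a quinone reductase, fell in gastrocnemius, with a change of -0.57, adjusted p = 0.00815 and an interaction of 0.34, adjusted p = 0.452. The list's medians were -0.09 in liver, 0.04 in the 7SL-matched livers and -0.05 in gastrocnemius. Ppp1r14b, an inhibitor of protein phosphatase 1, had 5.35, 6.08 and 8.43 in RAD001 gastrocnemius and 6.56, 7.7 and 9.26 in vehicle gastrocnemius, and 1.46, 1.77 and 2.55 in RAD001 livers and 1.27, 1.61 and 2 in vehicle livers. Among treated libraries, 7 of 8 livers and 1 of 8 muscles were inside the range of the vehicle libraries. Its change was -0.31 (SE 0.0763, adjusted p = 0.0336) in gastrocnemius and 0.15 (SE 0.0893, adjusted p = 0.229) in liver, with an interaction of 0.47 (SE 0.121, adjusted p = 0.0238), and the gastrocnemius call was lost when any of 8 single libraries was left out. Over the 30 gastrocnemius-limited loci the sign of the interaction was the same in all 30 when 7SL-matched (6065 of all 7534 loci kept it). The muscle libraries that chose these loci are the same in that comparison, so the sign was largely fixed by the choice.

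**Figure D5:**
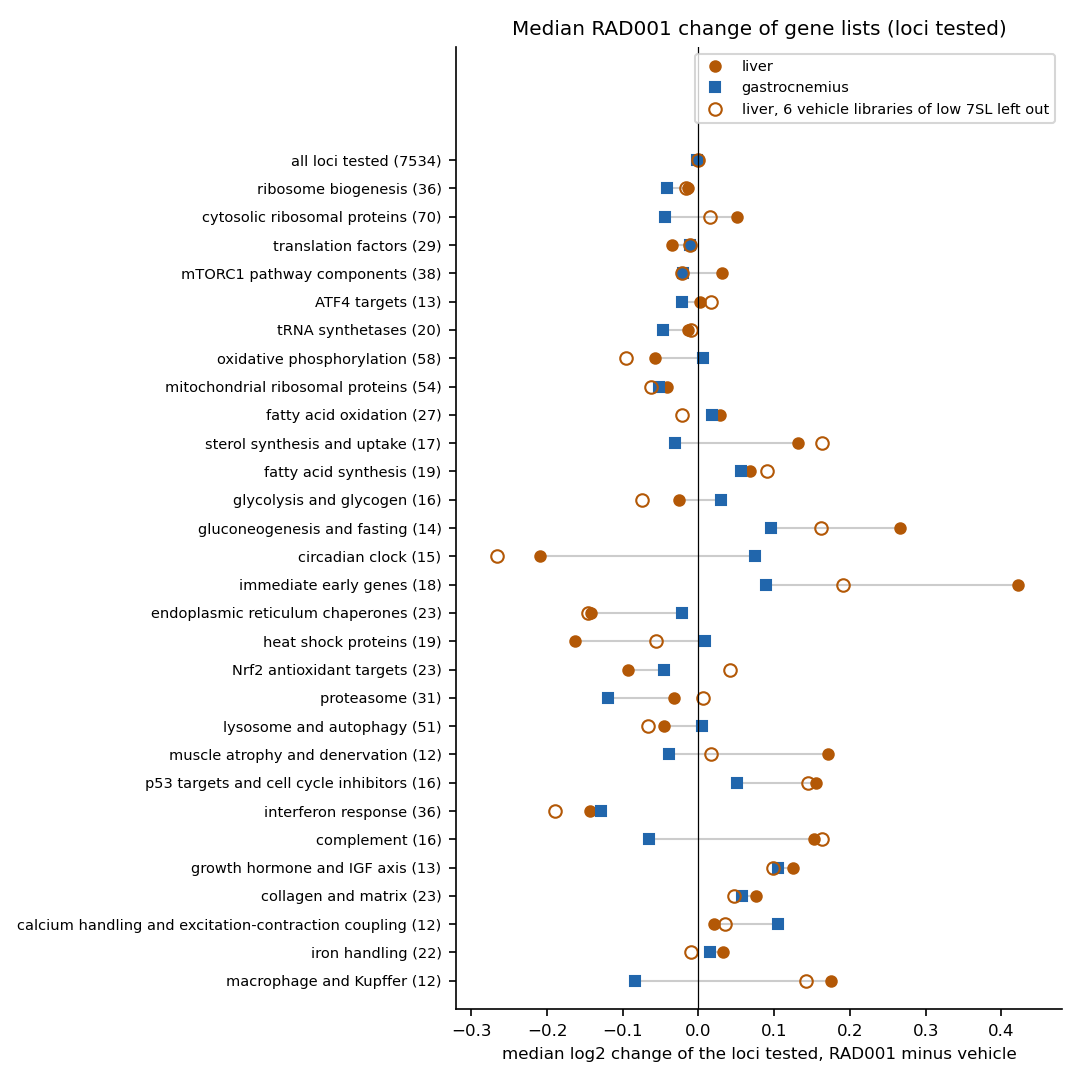
Median log2 change on RAD001 of the loci tested in each gene list with at least 10 of them (number in brackets), in liver (filled circles), in gastrocnemius (squares) and in liver without the 6 vehicle livers of low 7SL (open circles). The liver medians of immediate early genes (0.42) and endoplasmic reticulum chaperones (-0.14) lie away from 0, and the proteasome has its lower median in gastrocnemius (-0.12).

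Markers of other cell types were summed per library. Among 36 library values compared by exact permutation tests within a tissue, 3 passed the adjustment. The sum of 12 stellate cell and fibroblast markers was 164, 173 and 189 in RAD001 gastrocnemius and 134, 148 and 162 in vehicle gastrocnemius (two-sided exact p = 4.57e-05, adjusted 0.00165). Desmin, Des, which muscle fibres express too, made up 81.1% of that sum, and Dcn, the next largest, was at 18.1 ± 3.10 (SD, n = 8) in RAD001 and 18.8 ± 2.83 (SD, n = 10) in vehicle gastrocnemius. The sum of adipocyte markers was 3.76, 4.17 and 4.66 in RAD001 livers and 2.87, 3.64 and 4.06 in vehicle livers (exact p = 0.000846, adjusted 0.0152), of which Cidec made up 47.8% and Cfd 31.1%. Cidec had close means, 1.88 ± 0.097 (SD, n = 8) in RAD001 and 1.81 ± 0.233 (SD, n = 10) in vehicle livers. The means of Cfd were 1.38 and 1.05, and those of Pnpla2, the next largest, 0.49 and 0.359. The third was Rn45s in gastrocnemius, given above. The hepatocyte sum was 4726, 5703 and 7317 in RAD001 livers and 5107, 7617 and 8939 in vehicle livers (exact p = 0.0164, adjusted 0.0845). Alb made up 56.5% of it, at 3062 ± 711 (SD, n = 8) in RAD001 and 4358 ± 961 (SD, n = 10) in vehicle livers. Of the next largest members, Ttr and Apoc3 had higher means on RAD001 and Serpina1 a lower one. The part of these values in the results was not tested.

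Kidney, which the classes did not use and which may come from the same rats, gave a further view of the same loci. There 3404 of 10332 loci were called (32.9%; 16.4% higher and 16.5% lower). Of the liver-limited higher loci 131 were tested there, and 50 rose and 10 fell on RAD001, against 18% of loci that rose and 15.5% that fell among the 7492 tested in all 3 tissues. Under upper quartile scaling 36 of these rose and 11 fell, and on values as deposited 29 rose and 8 fell. Of the 136 liver-limited lower loci, 22 rose and 21 fell, an even split that depended on the scaling. Under upper quartile scaling 12 of them rose and 36 fell, and on values as deposited 4 rose and 12 fell. Among the 26 shared higher loci 4 rose and 6 fell in kidney, and among the 23 shared lower loci 1 rose and 4 fell. With upper quartile scaling in kidney, 0 of the shared higher loci rose and 7 fell, and 1 of the shared lower loci rose and 5 fell. Fn1 was called in the other direction there, with a change of -0.92, adjusted p = 0.00489, and Plec as well, at -0.51, adjusted p = 0.000176. Ubd fell in kidney too (-3.12, adjusted p = 0.000781), as did Ncl (-0.91, adjusted p = 8.98e-08) and Npm1 (-0.22, adjusted p = 0.0315). Of the gastrocnemius-limited loci, 1 of 16 higher ones rose and 6 fell in kidney, and 5 of 14 lower ones rose and none fell. 7SL RNA was higher in RAD001 kidneys without overlap (31002, 32830 and 39495, against 21324, 24547 and 30807 on vehicle) and Rn45s lower (206, 231 and 268, against 332, 397 and 569). With 7SL as a covariate 7 of the class members were called in kidney, against 131 without it. Because 7SL stands apart between the kidney groups, that fit cannot tell a RAD001 change from a 7SL difference.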

How the data were processed

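The 36 RNA libraries of liver and gastrocnemius at 24 months were compared, with 18 kidney libraries as a further tissue. Total RNA with an RNA integrity number above 8 was sequenced, per the labels' protocols, and reads were aligned with STAR 2.4.5a to rn5, per the submitters' processing notes. The tool that summarised reads over loci is not stated. The authors deposited 1 signal value per locus and library, which behaves as mean read coverage per base times a factor per library. Since these values are not counts, no count model was used, and depth is known only relative to other libraries.

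Values were scaled within a tissue by a trimmed mean of log ratios (30% trimmed), and log2(value + 0.1) was fitted with limma 3.58.1 in R 4.3.3. The interaction used 36 libraries and 32 residual degrees of freedom, each tissue alone 16. P-values were adjusted by the Benjamini-Hochberg method over all 7534 loci tested, and a call is an adjusted p under 0.05. Shared and opposite loci are called in both tissues, and tissue-limited loci are called in 1 tissue and by the interaction. Library values were compared by exact permutation tests. The code was tested on simulated data. Alternatives covered scaling, low-value filters, pseudocounts, thresholds, replicate blocks, a 7SL covariate, sample weights, inclusion of the 6-month libraries and leaving out each library.

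The members and the 46 gene lists were chosen with earlier results of these data known. Named genes were, by rule, the 5 shared loci per direction with the smallest larger adjusted p, opposite loci, the 4 largest tissue-limited changes per direction at a mean coverage of at least 1, the 5 most extreme interactions per sign among called loci at that coverage in both tissues, 2 members per list by interaction p, and a short fixed list that included Mtor. Loci with unnamed, joined or repeated symbols were passed over by the rule. Other genes named were chosen after their values were seen. Promoter sequences are from RefSeq (GRCr8), and gene coordinates are those of the deposited files (rn5).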

Additional observations from a re-analysis of the deposited data

Results flagged for a closer look

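Of 164 groups of libraries of the genes given per library, 7 held a library whose gap to its nearest neighbour was large against the range of the group, and chance gives about 5 in 100 groups. In RAD001 livers, number 9 had the lowest Plec (0.431, next 0.543) and the highest Hspd1 (5.59, next 4.94). In RAD001 gastrocnemius, number 2 had the highest Ppp1r14b (8.43, next 6.52) and the highest Txn1 (10.3, next 8.36). Rhob was highest in number 1 of the vehicle gastrocnemius (3.63, next 2.39), Pfkfb1 was highest in number 7 of the vehicle livers (2.38, next 1.39) and Gsta1 was lowest in number 2 of the vehicle livers (48.9, next 63.5).

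By a test of the difference itself, the RAD001 change differed between liver and gastrocnemius at 374 loci. Among them were the 3 called in opposite directions, namely RGD1566239 (interaction 0.60), Npm1 (-0.64) and the Morf4l1 locus on chromosome 13 (Morf4l1_L04497, -0.41).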

How the results depend on the processing

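The counts were 374 loci for the interaction, 1345 for liver, 203 for gastrocnemius, and 49 shared, 269 liver-limited, 30 gastrocnemius-limited and 3 opposite loci. Differences near 0 that were not called, such as the interactions of Hspa5, Fn1, Zfp598 and Hsd17b12, changed sign under some alternatives. The values as deposited gave 106 interaction and 10 gastrocnemius calls, and 3, 90, 4 and 0 loci in the classes in the order above. Leaving out the 6 vehicle livers of low 7SL gave 7 interaction and 10 liver calls and classes of 0, 4, 0 and 0. The 7SL level as a covariate gave 13 interaction and 104 liver calls and classes of 9, 7, 3 and 0. An adjusted p under 0.01 gave 41, 336 and 34 calls and classes of 2, 26, 3 and 0, and a change of at least 1.5-fold gave 45, 51 and 4 calls and classes of 1, 20, 2 and 0. A minimum of 1 tested fewer loci and gave 242, 483 and 117 calls and 170 liver-limited loci. Without a filter there were 26 shared and 0 opposite loci, with sample weights 1 opposite locus, with upper quartile scaling 5. Counting loci that passed in 8 of the 36 libraries gave 478 interaction calls and 45 gastrocnemius-limited loci. The cause of these moves was not tested.

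Numbers are shared between groups in the labels. Correlations of deviations of same-numbered livers and muscles ran from -0.0205 to 0.187 on RAD001 and from -0.0112 to 0.231 on vehicle. The best match was the own number in 4 of 8 and 4 of 10 cases, more often than if matches fell at random. RAD001 numbers 4 and 10 are absent from liver, gastrocnemius and kidney alike. Same numbers on RAD001 and vehicle correlated at a median of 0.132 in muscle (up to 0.377) and 0.0103 in liver (up to 0.275). The labels do not say what a number marks, so numbers were not taken as pairs in the main fit, and a link through them remains possible. The number within tissue as a replicate block gave 192, 803 and 87 calls and classes of 15, 139, 12 and 1; the group and number as a replicate block gave 360 interaction calls.

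Leaving out 1 library at a time gave 236 to 580 interaction, 945 to 1646 liver and 89 to 265 gastrocnemius calls, and 20 to 60 shared, 158 to 437 liver-limited, 13 to 38 gastrocnemius-limited and 0 to 8 opposite loci. The interaction moved by over 1.5 times without vehicle liver 3 (580), 5 (579) or 8 (236), and the gastrocnemius without vehicle 6 (131), RAD001 1 (131), 5 (89) or 6 (98). Interaction calls numbered 468, 580, 579 and 462 without vehicle livers 1, 3, 5 and 10, which are not of low 7SL. Without those of low 7SL (2, 4, 6, 7, 8 and 9) they numbered 390, 276, 273, 256, 236 and 382. The part of 7SL in these moves was not tested. Liver-limited loci numbered 432, 437, 172 and 158 without vehicle livers 3, 5, 7 and 8, and gastrocnemius-limited loci 19 without vehicle muscle 8, and 19, 13 and 18 without RAD001 muscles 1, 5 and 6. Shared loci numbered 32 without RAD001 liver 3, 31, 32 and 30 without vehicle muscles 6, 7 and 9, and 30, 20, 22, 32 and 31 without RAD001 muscles 1, 5, 6, 7 and 8. Opposite loci numbered 7 and 8 without vehicle livers 3 and 5, 5 without vehicle muscle 2, and 0 or 1 without vehicle muscles 3, 6, 7, 8 and 9 or RAD001 muscles 1, 5, 6, 7 and 8. For kidney, 131 class members were called, 68 on values as deposited and 7 with the 7SL covariate, which cannot be told apart from treatment there.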

Other observations

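Of 16 p53 targets and cell cycle inhibitors, 4 rose in liver (Cdkn1a, Phlda3, Aen and Bbc3; 8.79% of all loci did) and 1, Rb1, in gastrocnemius (1.43%). Cdkn1a, which encodes the cell cycle inhibitor p21, had a change of 0.71 (SE 0.187, adjusted p = 0.0153) in liver and 0.24 (SE 0.203, adjusted p = 0.537) in gastrocnemius, and its interaction was 0.47, adjusted p = 0.349. Of 19 fatty acid synthesis genes, 5 rose and 1 fell in liver (8.79% and 9.07% of all loci) and none was called in gastrocnemius or by the interaction (2.69% and 4.96%). Fads2, a desaturase of polyunsaturated fatty acids, had a change of 0.53 (SE 0.142, adjusted p = 0.0162) in liver. Of 15 circadian clock genes, 2 rose and 1 fell in liver (8.79% and 9.07%), 2 rose in gastrocnemius (1.43%) and none passed the interaction (4.96%). The repressor Nr1d1 rose in gastrocnemius (0.56, adjusted p = 0.00514), and the clock output factor Dbp had changes of -0.95 (SE 0.521, adjusted p = 0.204) in liver and 0.21 (SE 0.146, adjusted p = 0.447) in gastrocnemius, neither called.

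Genes called by the interaction and in neither tissue numbered 70. Among them was Eif4ebp3, a relative of the translation repressors that mTORC1 phosphorylates, with a change of -0.32 (SE 0.173, adjusted p = 0.196) in liver and 0.46 (SE 0.133, adjusted p = 0.061) in gastrocnemius. Its interaction was -0.78 (SE 0.23, adjusted p = 0.0404), and larger in size in the 7SL-matched comparison, where it was 1 of the 7 loci called. The others of these 7 were Rhob, Got1, Clptm1l, Crip2, Rhoq and Aktip. Aktip had no call over all 36 libraries (0.20, adjusted p = 0.325).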
